A study of Homo sapiens with 4 samples.

Results

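Semaphorins, plexins, neuropilins, Eph receptors and ephrins are the cell-surface and secreted proteins through which neighbouring cells attract or repel one another. Here their transcripts were compared between QK-knockdown U87 cells that had received the microRNA miR-20a and QK-knockdown U87 cells that had received the scrambled control microRNA miR-NT. The members were taken by gene symbol, with no measured value in the rule: every probe set annotated to 1 gene only, where that gene is a semaphorin of class 3 to 7, a plexin, a neuropilin, an Eph receptor or an ephrin. This gave 122 probe sets of 51 genes among 41920 probe sets tested. Of these genes, 15 had a single probe set and 36 had several, up to 10 for NRP2. EPHB2 had no such probe set and was not analysed here.

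U87 is an established human cell line from a glioma, a tumour of the brain's supporting cells. QK (QKI) encodes an RNA-binding protein, and its knockdown is shared by both groups, so the comparison tells only what miR-20a added to it. Each group held 2 samples, each read on 1 single-colour oligonucleotide array. The labels name neither the knockdown construct nor the number of clones or cultures. The p-values therefore reflect only how far these samples spread, and that spread may be technical.

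Semaphorins act through plexins. The secreted class 3 members mostly need a neuropilin as co-receptor, while the membrane-bound classes bind plexins directly. Ephrins are membrane-bound ligands of the Eph receptor tyrosine kinases: ephrin-A ligands are anchored by a lipid and pair mainly with EphA receptors, ephrin-B ligands span the membrane and pair mainly with EphB receptors, and both partners can signal into their own cell. In glioma these families are known for their part in cell migration, invasion and the growth of blood vessels.

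MiR-20a lowers transcripts mainly by pairing of its seed, bases 2 to 8, with sites in their 3′ untranslated regions. The sequences below are miR-20a, the microRNA that the labels name, and, for comparison, microRNAs that share its seed. They were taken from RefSeq on GRCh38.p14, with the seed in capitals. The mature miR-20a-5p lies at chr13:91351072-91351094 on the plus strand, in a microRNA cluster that also holds miR-17. Its seed is shared by the other miR-17 family members shown.
hsa-miR-20a-5p: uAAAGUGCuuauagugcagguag
hsa-miR-17-5p: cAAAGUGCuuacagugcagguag
hsa-miR-20b-5p: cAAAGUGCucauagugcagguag
hsa-miR-106a-5p: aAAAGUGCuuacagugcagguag
hsa-miR-106b-5p: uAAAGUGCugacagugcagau
hsa-miR-93-5p: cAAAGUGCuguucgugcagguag
The passenger strand has another seed.
hsa-miR-20a-3p: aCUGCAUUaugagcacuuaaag
Sites for these seeds in the members' transcripts were not analysed here.

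No guidance ligand or receptor passed the test for a change with miR-20a. Of the 122 probe sets, 0 had an adjusted p under 0.05 (limma, adjusted over all probe sets). On the whole array 57 of 41920 did, or 0.136%, with 0.119% higher and 0.0167% lower. Taking for each gene the probe set with the highest mean level, 0 of 51 genes passed, against 0.426% of 18304 genes (limma). All member changes were small. They ran from -0.43 log2 units for SEMA3F to 0.34 for NRP1, while the smallest change that passed was 0.78 log2 units in the fit over probe sets and 0.62 in the fit over genes. At an unadjusted p under 0.05 there were 21 member probe sets of 20 genes, or 17.2%, against a background of 17.9% of all probe sets (limma), a share near the background. Among genes it was 12 of 51, or 23.5%, against 21.8% of all genes (limma).

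The members' direction was mostly down. Lower means in miR-20a cells were seen for 91 of the 122 probe sets, 74.6%, against 55.3% of all probe sets. Both miR-20a arrays lay below both miR-NT arrays for 52 of them, 42.6% against a background of 27.2%, and above for 9, 7.38% against 21.7%. At an unadjusted p under 0.05, 17 probe sets were lower, 13.9% against 8.4% of all probe sets, and 4 were higher, 3.28% against 9.46% (limma). Among genes these were 9, 17.6% against 9.24%, and 3, 5.88% against 12.6% (limma), and 38 of 51 genes had a lower mean, 74.5% against 53%. The median log2 change was -0.09 for the members and -0.02 for all probe sets. Since RNA was taken from whole cultures, fewer cells expressing a gene and less RNA per cell cannot be told apart.

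These counts shifted with the arrays and the scaling. Leaving out miR-NT replicate 1, 5 member probe sets were lower with an unadjusted p under 0.05, 4.1% against 3.27% of all probe sets (limma). Leaving out miR-NT replicate 2 gave 9, 7.38% against 5.33%. Leaving out the first miR-20a array gave 11, 9.02% against 7.95%, and the other 18, 14.8% against 7.77%. Higher members were 1, 1, 2 and 2 in these fits, against 4.43%, 6.83%, 7.9% and 10.9% of all probe sets. The lower share was thus near the background in the first and the third of these fits. After median centring 9 members were lower, 7.38% against 5.75%, and 4 higher, 3.28% against 11.8% of all probe sets. After quantile normalization 13 were lower, 10.7% against 8.03%, and 0 higher against 8.04%. After cyclic loess 11 were lower, 9.02% against 7.29%, and 1 higher, 0.82% against 8.6%. All 3 scalings brought the lower share at an unadjusted p under 0.05 (limma) nearer to the background than the deposited values did. A lower mean was seen for 68% of the members after quantile normalization, against 51.9% of all probe sets. After centring it was 65.6% against 46.8%, and after cyclic loess 67.2% against 49.7%. The median of the members stayed below that of all probe sets under each of these settings, at -0.07 against -0.01 after quantile normalization, -0.06 against 0.01 after centring and -0.05 against 0.00 after cyclic loess.

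**Figure D1:**
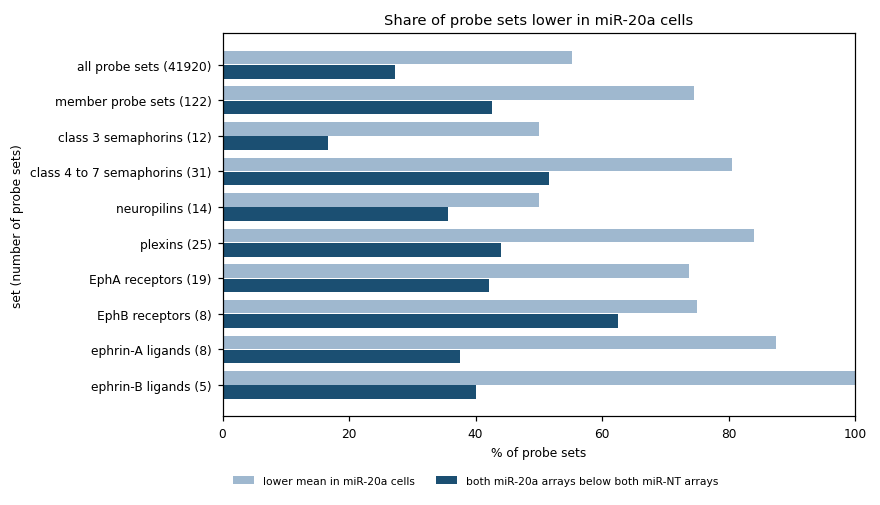
Share of probe sets lower in miR-20a cells, in % of the probe sets of each set, with the number of probe sets in brackets. Pale bars count lower means and dark bars count probe sets whose 2 miR-20a arrays both lie below both miR-NT arrays. The members reach 74.6% and 42.6%, against 55.3% and 27.2% for all probe sets, and class 3 semaphorins and neuropilins stand at 50% for lower means.

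Other measures differed between the arrays of the groups as well. Change and level were weakly correlated over all probe sets (Spearman rho = 0.22, a description across probe sets, which are not independent). The difference between the 3′ and 5′ control probe sets of ACTB, a sign of RNA quality, was 0.20 and 0.35 log2 units with miR-NT and 0.52 and 0.46 with miR-20a. For GAPDH it was 0.22 on each miR-NT array, and 0.27 and 0.28 with miR-20a. Lower means were seen for 55.3% of all probe sets, and in the marker lists of other cells for 18 of 22 endothelial, 14 of 24 neuronal, 20 of 26 oligodendrocyte, 14 of 19 blood and 9 of 12 epithelial probe sets, and for 32 of 43 of glioma and glial markers. The neuronal share, 58.3%, was near that of all probe sets. Averaged over its probe sets, the endothelial list stood at 6.03 log2 units on both miR-NT arrays and at 5.92 and 5.98 with miR-20a. For the blood list these averages were 6.35 and 6.32 against 6.22 and 6.37. The values carry no detection calls and none is at 0, so presence of those cells cannot be judged from them. The part of these shifts in the members' direction was not tested. Of the 12 glioma and glial marker genes, VIM, CHI3L1 and CD44 were high by the probe set used for the gene. VIM, an intermediate filament that many cell types share, read 14.63 to 14.70 on the 4 arrays by 201426_s_at, though 5.28 to 5.75 by its other probe set. CHI3L1, a secreted protein abundant in glioma, lay at 12.32 to 13.51 by 209396_s_at, where it fell by 1.12 log2 units with miR-20a (limma adjusted p = 0.024). The neural transcription factors SOX2 and OLIG2 averaged 7.14 and 6.54 in miR-NT cells, beside an array median near 7.0. The glial genes FABP7, AQP4 and S100B averaged 6.58, 5.44 and 4.90 there. SLC1A3, NES and SOX9 of the same list averaged 8.99, 8.21 and 7.31, above that median. These markers do not identify the line. GFAP, the astrocyte filament, read between 5.15 and 7.33 over its 3 probe sets, and U87 is known to express little of it.

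**Figure D2:**
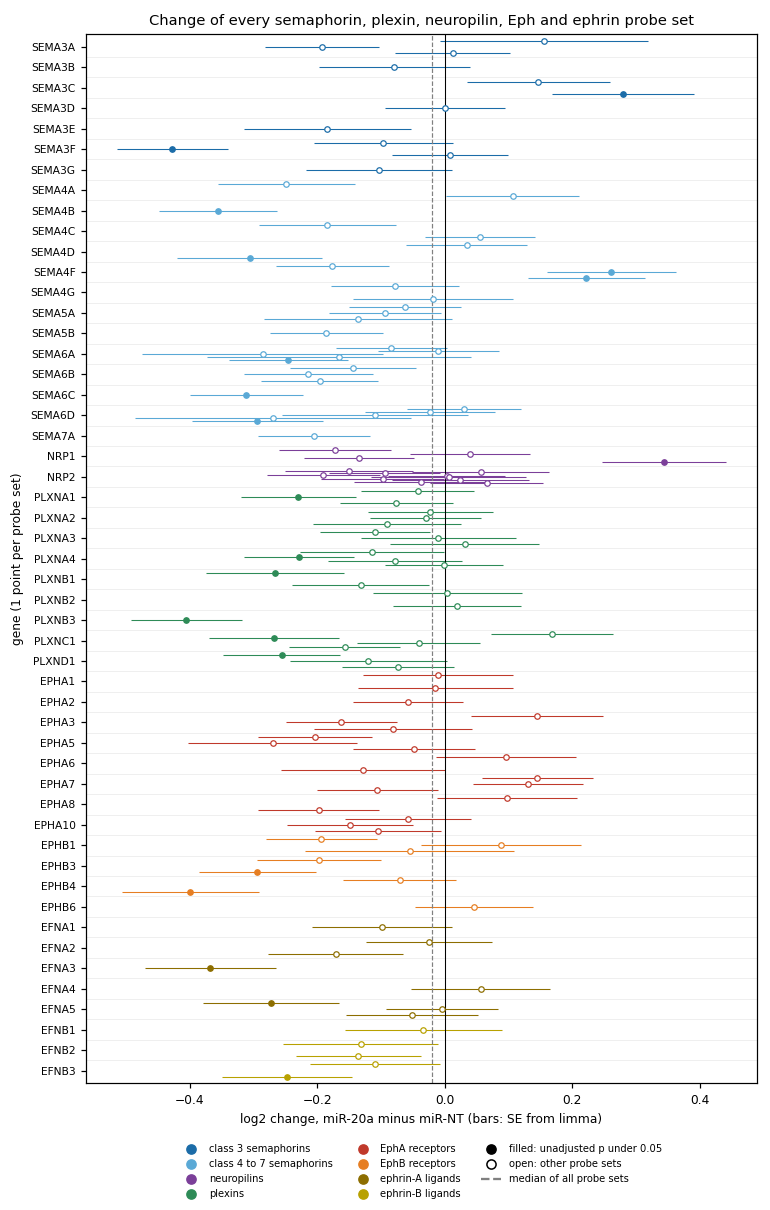
Log2 change (miR-20a minus miR-NT, x axis) of each of the 122 probe sets, by gene on the y axis and coloured by family, with bars for the SE from limma. Filled points have an unadjusted p under 0.05, the dashed line is the median of all probe sets at -0.02, and no point reaches 0.5 log2 units either way.

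Among the secreted class 3 semaphorins, SEMA3C and SEMA3F had changes of opposite sign. SEMA3C, a ligand linked to survival of glioma stem cells, read 9.51 and 9.63 log2 units with miR-NT and 9.96 and 9.74 with miR-20a by the probe set 203789_s_at. The groups did not overlap, and the change was 0.28 ± 0.11 log2 units (SE, limma adjusted p = 0.26). It was 0.18 after quantile normalization or cyclic loess and 0.17 with miR-20a replicate 1 left out. Its other probe set, 203788_s_at, gave 0.15 with overlapping groups. SEMA3F, which repels cells through NRP2, read 8.26 and 8.22 with miR-NT and 7.82 and 7.79 with miR-20a by 209730_at. This was the largest change and the smallest p of any member, -0.43 ± 0.09 or 1.35-fold lower (limma adjusted p = 0.14). It was not shared by the other probe sets of the gene. By 35666_at SEMA3F read 8.87 and 8.78 against 8.80 and 8.86, a change of 0.01 with a 95% confidence interval from -0.21 to 0.23, and 206832_s_at gave -0.10.

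SEMA3A, a ligand that collapses growth cones, was uneven, with changes of 0.16, 0.01 and -0.19 by its 3 probe sets. For the first of these, the second miR-20a array read 6.21 log2 units and the first 5.74, while the miR-NT arrays read 5.91 and 5.72. It was -0.08 when the array at 6.21 was left out. The SEMA3A probe sets with 0.01 and -0.19, and that of SEMA3E, read between 3.67 and 4.11, near the lowest values of the array. SEMA3B, SEMA3D, SEMA3E and SEMA3G each had 1 probe set annotated to that gene only, with changes between -0.18 and 0.00 and overlapping groups. SEMA3B was also read by a probe set shared with a microRNA gene, which was not counted among the members. That probe set had a higher level and a change of -0.36 without overlap (limma adjusted p = 0.15), against -0.08 by the counted SEMA3B probe set. Of the 12 class 3 probe sets 6 were lower and 6 higher, with a median change of -0.04. On chromosome 7, SEMA3A lies next to SEMA3E on one side and SEMA3D on the other when only protein-coding genes are counted (RefSeq, GRCh38.p14). Of the few probe sets of these 3 genes 0 passed an unadjusted p of 0.05, against 17.9% of all probe sets (limma).

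The membrane-bound semaphorins of classes 4 to 7 were the family with the most probe sets, 31 of 13 genes, of which 25 had a lower mean, 80.6% against 55.3% of all probe sets. SEMA4B, a transmembrane class 4 member, was at 9.58 and 9.48 log2 units in miR-NT cells and at 9.21 and 9.14 in miR-20a cells. Every miR-20a value was below every miR-NT value, with a change of -0.36 ± 0.09 (SE, limma adjusted p = 0.16). SEMA6C, a ligand of A-type plexins, read 8.46 and 8.51 against 8.14 and 8.20, again without overlap, a change of -0.31 ± 0.09 (limma adjusted p = 0.18). The suffix _x_at of its only probe set marks probes that may also bind other transcripts.

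SEMA4D, the ligand of plexin-B1 that is shed from cells, had changes of -0.31 and 0.03 by its pair of probe sets. The first read 6.72 and 6.82 log2 units with miR-NT and 6.59 and 6.34 with miR-20a, and the second 6.69 and 6.83 against 6.76 and 6.82. Only the first therefore separated the groups. SEMA4A, a class 4 ligand studied in immune cells, stood at 8.94 and 8.76 against 8.52 and 8.68 by the probe set of higher level, a change of -0.25 ± 0.11 (SE, limma adjusted p = 0.29), while the other gave 0.11. The former was -0.16 with miR-NT replicate 1 left out.

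SEMA4F was the only member with more than 1 probe set at an unadjusted p under 0.05, and both were higher. By 210124_x_at it read 9.64 and 9.47 log2 units with miR-NT and 9.76 and 9.86 with miR-20a, a change of 0.26 ± 0.10 (SE, limma adjusted p = 0.25). The second, 228660_x_at, read 9.49 and 9.38 against 9.68 and 9.63, a change of 0.22 ± 0.09 (limma adjusted p = 0.28). Both carry the suffix _x_at. The first was 0.17 after quantile normalization and 0.16 after cyclic loess. The gene's remaining probe set, 208124_s_at, had a change of -0.18, with both miR-20a arrays below both miR-NT arrays.

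Class 6 semaphorins, transmembrane ligands that bind A-type plexins, were nearly all lower. SEMA6A had 5 of 5 probe sets lower, with changes from -0.29 to -0.01, SEMA6B 3 of 3, from -0.21 to -0.14, and SEMA6D 4 of 5, from -0.29 to 0.03. Over all probe sets 55.3% had a lower mean. All 3 probe sets of SEMA6B separated the groups, as did 27.2% of all probe sets downward. For SEMA6B, 220778_x_at and 224182_x_at carry the suffix _x_at. Its remaining probe set, 223567_at, had the largest change of the gene and read between 4.30 and 4.65 log2 units. Some of the class 6 changes came from 1 array. By 220454_s_at SEMA6A read 7.91, 7.97 and 7.96 log2 units on both miR-NT arrays and miR-20a replicate 2, and 7.35 on miR-20a replicate 1. SEMA6D by 233882_s_at had the same shape, at 5.14 on miR-20a replicate 1 against 5.71, 5.83 and 5.85. SEMA7A, the lipid-anchored semaphorin that binds plexin-C1 and beta-1 integrin, read 7.14 and 7.10 against 6.94 and 6.88, a change of -0.20 ± 0.09 (SE, limma adjusted p = 0.29). SEMA5A and SEMA5B, whose thrombospondin repeats set class 5 apart, had changes of -0.14 to -0.06 and of -0.19. SEMA4C gave -0.18 and 0.06 and SEMA4G -0.08 and -0.02.

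Neuropilins bind class 3 semaphorins and also vascular endothelial growth factor. NRP1 by 212298_at had the largest positive change of the family, at 9.89 and 9.93 log2 units in miR-NT cells and 10.34 and 10.18 in miR-20a cells. The groups were apart, with a change of 0.34 ± 0.10 or 1.27-fold (SE, limma adjusted p = 0.17). It was smaller, 0.22 and 0.23, after quantile normalization and cyclic loess. The other 3 probe sets of NRP1 did not show it. By 210510_s_at NRP1 read 9.52 and 9.45 against 9.58 and 9.47, a change of 0.04 with a 95% confidence interval from -0.19 to 0.26, and the remaining ones gave -0.13 and -0.17. For NRP1 the probe sets thus spanned 0.52 log2 units, more than for any other member.

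NRP2, the receptor of SEMA3F, had 10 probe sets, 5 lower and 5 higher, with changes from -0.19 to 0.07. None had an unadjusted p under 0.05, against 17.9% of all probe sets (limma). By the probe set of highest level it read 8.80 and 8.49 log2 units against 8.67 and 8.63, a change of 0.01 with a 95% confidence interval from -0.29 to 0.30, whose sign turned to -0.04 after quantile normalization and -0.03 after cyclic loess.

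**Figure D3:**
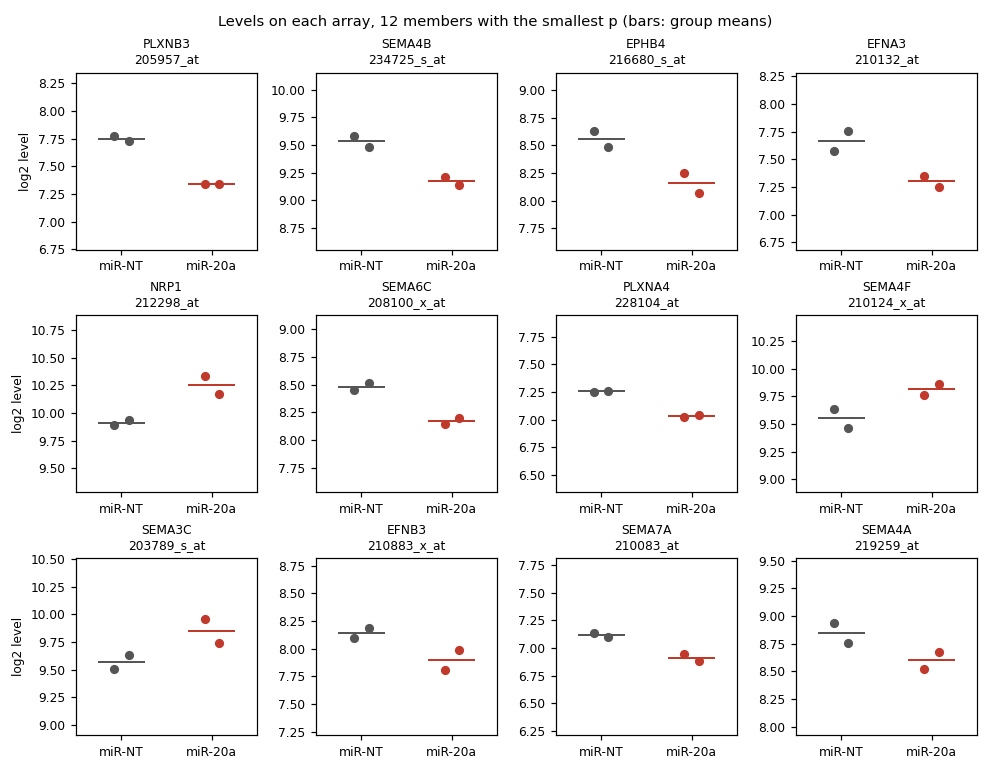
Log2 levels of the 12 members with the smallest p, by the probe set used for the gene, on each miR-NT array (grey) and miR-20a array (red), with bars for group means. Each panel spans 1.6 log2 units. No panel shows overlapping groups, but the 12 were chosen by p in these same data, which favours groups that lie apart. Over all genes the groups lay apart downward for 27% and upward for 25.5%. Of the 12, 9 are lower and 3, NRP1, SEMA4F and SEMA3C, higher in miR-20a cells.

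Plexins are the semaphorin receptors, and their cytoplasmic part acts on small GTPases. Of 25 plexin probe sets 21 had a lower mean, 84% against 55.3% of all probe sets. An unadjusted p of 0.05 was passed downward by 6, 24% against 8.4%, and upward by 0 against 9.46% (limma). PLXNB3, the B-type plexin that binds SEMA5A, had the smallest p among the 51 genes. It read 7.77 and 7.73 log2 units with miR-NT and 7.35 on each array with miR-20a. The arrays of a group were nearly equal, and the change was -0.41 ± 0.09, or 1.32-fold lower (SE, limma adjusted p = 0.14 over all probe sets and 0.084 over genes). The gene has 1 probe set on this array, so no second reading of it was at hand.

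Among the A-type plexins, PLXNA1, a receptor of class 3 and class 6 semaphorins with many roles in nerve growth, had 3 probe sets, all with both miR-20a arrays below both miR-NT arrays. The largest of the PLXNA1 changes was -0.23 ± 0.09 (SE, limma adjusted p = 0.26), with 8.55 and 8.46 log2 units against 8.26 and 8.29. The others gave -0.08 and -0.04. PLXNA4, a partner of SEMA6A, read 7.25 and 7.26 against 7.02 and 7.04 by 228104_at, a change of -0.23 ± 0.09 (limma adjusted p = 0.25), and its other 3 probe sets lay between -0.11 and 0.00. PLXNA2 and PLXNA3 had changes between -0.11 and 0.03.

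PLXNB1, the receptor of SEMA4D, had both probe sets lower, at -0.27 and -0.13 log2 units. PLXND1, known from blood vessel growth, had all 3 lower, at -0.26, -0.12 and -0.07. PLXNC1, the receptor of SEMA7A, was split, with 206471_s_at at 4.87 and 4.93 with miR-NT and 4.54 and 4.72 with miR-20a, and 206470_at at 4.80 and 4.67 against 4.86 and 4.94. Those changes were -0.27 and 0.17, and neither group pair overlapped, while its remaining probe sets gave -0.16 and -0.04. PLXNB2, the plexin linked to glioma invasion, showed hardly any difference, with 10.87 and 10.60 against 10.69 and 10.80 and a change of 0.00 (95% confidence interval from -0.28 to 0.28). Its sign depended on the scaling, at -0.17 after quantile normalization and -0.13 after cyclic loess.

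Eph receptors divide into EphA and EphB. None of the 19 EphA probe sets had an unadjusted p under 0.05, against 17.9% of all probe sets (limma, 0 after adjustment). A lower mean was seen for 14 of them, 73.7% against 55.3% of all probe sets. The median level of the EphA probe sets was 5.30 log2 units, against 6.99 for all probe sets. EPHA2, the Eph receptor most often described in glioblastoma, read 8.63 and 8.64 log2 units in miR-NT cells and 8.59 and 8.57 in miR-20a cells. The arrays did not overlap, but the change was only -0.06, with a 95% confidence interval from -0.26 to 0.15. EPHA5, a receptor studied in axon mapping, had all 3 probe sets lower, at -0.27, -0.20 and -0.05. EPHA3, a receptor reported on glioma stem cells, went both ways, from -0.16 to 0.14, and EPHA7, a receptor of the developing cortex, from -0.11 to 0.14. Of the other EphA receptors, EPHA10 gave -0.15 to -0.06, EPHA8 -0.20 and 0.10, EPHA6 -0.13 and 0.10, and EPHA1 -0.01 by both probe sets. The probe sets of EPHA7 read between 3.79 and 4.14, near the lowest values of the array. EPHA3 by 206070_s_at and 211164_at, EPHA5 by 237939_at and EPHA6 by 1561396_at were similarly low, with group means from 3.84 to 4.31.

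Of 8 EphB probe sets, 2 passed an unadjusted p of 0.05 downward, against 8.4% of all probe sets, and 0 upward, against 9.46% (limma), so few that these shares say little. EPHB4, the receptor of ephrin-B2 that marks veins, was at 8.63 and 8.48 log2 units with miR-NT and at 8.25 and 8.06 with miR-20a by 216680_s_at. This change, -0.40 ± 0.11 or 1.32-fold lower (SE, limma adjusted p = 0.16), was larger than that of the other EPHB4 probe set, which read 7.84 and 7.86 against 7.74 and 7.82 for a change of -0.07. EPHB3, a receptor with roles in commissural axons and gut epithelium, was lower by both probe sets without overlap. It read 7.56 and 7.65 against 7.35 and 7.27 by 204600_at, a change of -0.29 ± 0.09 (limma adjusted p = 0.19), and -0.20 by 1438_at. EPHB1 had changes of -0.19, -0.06 and 0.09. EPHB6, which lacks kinase activity, had a change of 0.05.

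Among the ligands, EFNA3, an ephrin-A, read 7.58 and 7.76 log2 units in miR-NT cells and 7.35 and 7.25 in miR-20a cells. The groups did not overlap, and the change was -0.37 ± 0.10, or 1.29-fold lower (SE, limma adjusted p = 0.17). Its neighbours on chromosome 1, with 0 protein-coding genes between them in RefSeq on GRCh38.p14, gave smaller values with overlapping groups. EFNA4 on one side had a change of 0.06 and EFNA1, the ligand of EPHA2, on the other -0.10 (95% confidence interval from -0.36 to 0.16). EFNA5, which guides axons in the visual system, had changes of -0.27, -0.05 and 0.00, the first with 7.22 and 7.06 against 6.78 and 6.95. EFNA2 gave -0.17 and -0.02.

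Every ephrin-B probe set had a lower mean, against 55.3% of all probe sets, with changes of -0.25 to -0.03. These are 5 probe sets of 3 genes, so few that the share says little. EFNB3, the ephrin-B of the nervous system's midline, read 8.10 and 8.19 log2 units against 7.80 and 7.99 by 210883_x_at, a change of -0.25 ± 0.10 (SE, limma adjusted p = 0.28), and -0.16 with miR-20a replicate 1 left out. Its other probe set gave -0.11. EFNB2, the arterial ligand of EPHB4, read 8.30 and 8.20 against 8.26 and 7.97 by 202668_at, a change of -0.13 (95% confidence interval from -0.42 to 0.16). Its second probe set gave -0.14. EFNB1 had 7.52 and 7.22 against 7.39 and 7.27, with overlap, a change of -0.03 that turned to 0.01 after cyclic loess.

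Probe sets of one gene often disagreed. Of the 36 members with several, 18 had all probe sets lower, 2 had all higher and 16 were mixed, that is 50%, 5.56% and 44.4%. Over all 9835 genes with several probe sets these shares were 25.8%, 18.1% and 56.1%. The 2 members with all probe sets higher were SEMA3C and PLXNB2, and the sign of the latter depended on the scaling as given above. Probe sets of a gene share its transcripts and the arrays and are not replicates.

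The precision was enough to bound most members. The 95% confidence interval lay within 0.5 log2 units of no change, that is within 1.41-fold, for 101 of 122 probe sets, and within 1 unit, or 2-fold, for all 122. The missed threshold therefore does not show that levels were equal, only that larger changes were outside these intervals.

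A call depended on the settings for 6 genes. With the lower 40% of genes by level left out, NRP1, SEMA4B, EPHB4, SEMA6C, PLXNB3 and EFNA3 passed in the fit over genes, with adjusted p between 0.027 and 0.046 (limma), among 33 members retained. In that setting 11.3% of all genes passed. When the variance was let follow the level and the fit was made robust, NRP1, SEMA4B and PLXNB3 passed, with adjusted p of 0.038, 0.032 and 0.044 (limma), against 6.62% of all genes. At an adjusted p under 0.10, PLXNB3 was the 1 member past the threshold, against 4.94% of all genes. In the fits over all probe sets, 0 members passed under any of these settings.

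**Figure D4:**
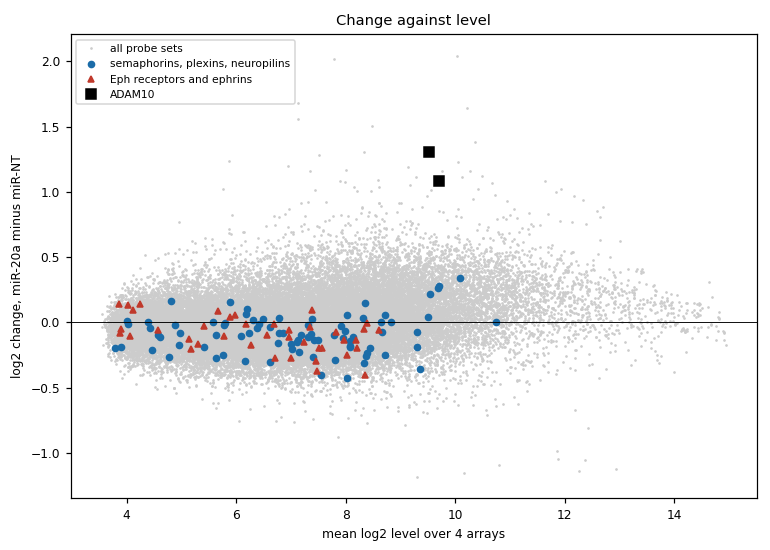
Log2 change (y axis) against the mean log2 level over the 4 arrays (x axis) for all 41920 probe sets (grey), the semaphorin, plexin and neuropilin probe sets (blue circles), the Eph and ephrin probe sets (red triangles) and ADAM10 (black squares). The members lie within the grey cloud between -0.43 and 0.34, and ADAM10 lies above most of it at 1.08 and 1.31.

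Around these receptors, one enzyme that cuts their ligands changed. ADAM10, the membrane protease that sheds ephrins and other surface proteins, rose by both of its probe sets. By 214895_s_at ADAM10 stood at 8.85 and 8.89 log2 units in miR-NT cells and at 10.22 and 10.14 in miR-20a cells. That is 2.48-fold, or 1.31 ± 0.09 log2 units (SE, limma adjusted p = 0.024), the fourth smallest p of the array. By 202604_x_at it stood at 9.22 and 9.11 against 10.31 and 10.18, that is 2.12-fold or 1.08 ± 0.10 (limma adjusted p = 0.027). For the second probe set the adjusted p was 0.38 and 0.30 with the first and the other miR-NT array left out, and 0.054 with miR-20a replicate 1 left out (limma), with changes between 1.02 and 1.15 log2 units throughout. No probe set of the whole array passed when either miR-NT array was left out.

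ADAM10 was the only gene past the threshold among 53 measured co-receptors, sheddases and cytoplasmic effectors of semaphorin and ephrin signalling (limma). Its 2 probe sets carry the suffixes _s_at and _x_at. Of the 145 probe sets of this list 2 rose and 0 fell, against 0.119% and 0.0167% of all probe sets (limma). Before adjustment 20 were higher and 14 lower, 13.8% and 9.66%, against the backgrounds of 9.46% and 8.4%, and the median change was 0.00. ITGB1, the beta-1 integrin that serves as a receptor of SEMA7A, read 12.54 and 12.63 log2 units against 13.15 and 13.03, a change of 0.50 ± 0.10 (SE, limma adjusted p = 0.13). ACP1, a low molecular weight phosphatase that acts on EPHA2, had a change of 0.43. MICAL2, an actin-oxidising enzyme of the MICAL family, had 0.46 by 1 of its 4 probe sets, the others being between -0.05 and 0.08. For ITGB1, ACP1 and MICAL2 the changes were 0.39, 0.32 and 0.31 after quantile normalization, and 0.35, 0.32 and 0.32 after cyclic loess. Median centring gave 0.54, 0.465 and 0.49. Under the robust fit with a variance trend these 3 passed, with adjusted p of 0.021 for ITGB1, 0.040 for ACP1 and 0.039 for MICAL2 (limma), where 2.28% of all probe sets passed.

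Other axon guidance ligands and receptors gave 0 of 63 probe sets past the threshold, against 0.136% of all probe sets (limma). Before adjustment 4 were higher, 6.35% against 9.46% of all probe sets, and 3 lower, 4.76% against 8.4% (limma). The 63 probe sets cover 29 genes, among them netrins, SLITs, repulsive guidance molecules and their receptors. The median change of these probe sets was -0.06. Lower means were seen for 43 of the 63 probe sets, 68.3% against 55.3% of all probe sets, and for 22 of the 29 genes, 75.9%, beside 74.5% of the semaphorin, plexin, neuropilin, Eph and ephrin genes. ROBO1, the SLIT receptor, read 8.84 and 8.88 log2 units in miR-NT cells and 9.33 and 9.21 in miR-20a cells. The groups were apart, with a change of 0.41 ± 0.09 (SE, limma adjusted p = 0.14, and 0.047 under the robust fit with a variance trend, where 2.28% of all probe sets passed). RTN4, which encodes the neurite inhibitor Nogo, had a change of 0.25, LINGO1, a subunit of the Nogo receptor complex, -0.26, and DSCAM, a netrin-binding adhesion molecule, -0.25. RTN4 was 0.10 after quantile normalization, 0.098 after cyclic loess and 0.17 with miR-NT replicate 1 left out, and DSCAM -0.14 with miR-20a replicate 1 left out.

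**Figure D5:**
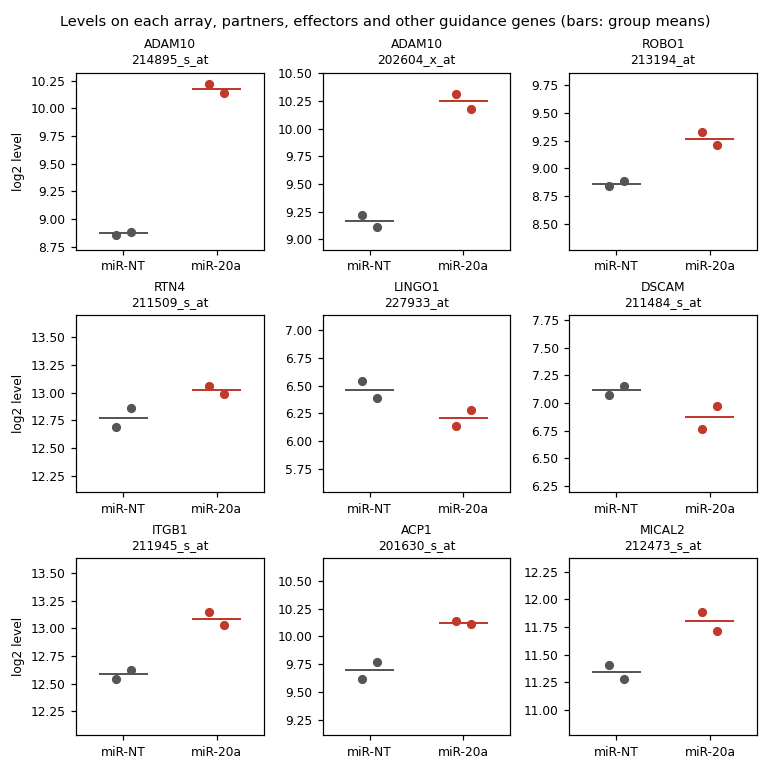
Log2 levels of ADAM10 (2 probe sets) and of ROBO1, RTN4, LINGO1, DSCAM, ITGB1, ACP1 and MICAL2 on each miR-NT array (grey) and miR-20a array (red), with bars for group means. Each panel spans 1.6 log2 units, and the ADAM10 groups lie 1.31 and 1.08 log2 units apart, against 0.50 or less in the other panels.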

How the data were processed

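The deposited table holds a log2 level for every probe set on every array, made by the authors with the R package affy, per the submitters' processing notes (no version). How background, scaling and summary of probes were handled is not stated there. The log2 base was read from the range of the values. Precision is limited by the few arrays. Gene names came from GEO's annotation of the platform. All 51 member symbols matched RefSeq by Entrez identifier. One further gene of the family is not reported here. Of 41930 probe sets 10 were array controls, which were left out of the fit.

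The deposited scaling was kept and no filter on low values was applied. MiR-20a was compared with miR-NT on 4 arrays with limma (version 3.58.1, under R 4.3.3; a linear model with group as its term, moderated by eBayes), with two-sided p-values adjusted by Benjamini-Hochberg over all probe sets, at 0.05. A second fit used 1 probe set a gene, that of highest mean. For 2 arrays a group, the smallest p an exact permutation test allows is 0.333. The fits were tested on simulated data.

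Genes named with values were the 12 members of smallest p in the gene fit, those with at least 2 probe sets at an unadjusted p under 0.05, 15 members fixed by name (EPHB2 among them), and the 4 genes of smallest p in the gene fit in each of the lists of partners (ADAM10 among them) and of other guidance genes. Other members are given as examples or to account for every gene. The members, the lists and the rule were chosen with earlier results of these data known. The other settings were quantile, median and cyclic loess scaling, a filter on low values, a trend and robust fit, a replicate block, an adjusted p of 0.10, removal of probe sets with the suffix _x_at or _s_at, the mean of a gene's probe sets, and leaving out each array. A crossed block was added after seeing the data.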

Additional observations from a re-analysis of the deposited data

How the results depend on the processing

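No member probe set passed the adjusted threshold under any setting run. Member genes past it numbered 6 with low values removed, 3 with the trend and robust fit and 1 at an adjusted p under 0.10 (PLXNB3), and 0 under the other settings. With the trend and robust fit 2.28% of all probe sets passed. There other axon guidance probe sets past the threshold went from 0 to 1, and partner and effector probe sets from 2 to 7. The latter were 0 without _x_at and _s_at probe sets, where ADAM10 has none left, and between 0 and 2 when 1 array was left out. Lower member probe sets at an unadjusted p under 0.05 numbered 17 with the deposited values, 9 after median centring, 11 after cyclic loess, 11 of 85 without _x_at and _s_at probe sets, and between 5 and 18 when 1 array was left out. With the deposited values the lower share was 13.9% of the members against 8.4% of all probe sets (limma). It was 7.38% against 5.75% after median centring and 9.02% against 7.29% after cyclic loess, so the share of all probe sets fell as well. Without _x_at and _s_at probe sets it was 12.9% against 7.71%. Higher member probe sets numbered 4 with the deposited values, 3.28% against 9.46% of all probe sets (limma). They numbered 0 after quantile normalization, against 8.04%, and 1 after cyclic loess, 0.82% against 8.6%. Without _x_at and _s_at probe sets 1 of 85 was higher, 1.18% against 7.43%.

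The arrays share only a replicate number. Deviations of same-numbered arrays correlated at -0.12. With the replicate number as a block 0 probe sets of the whole array passed, so partner and effector probe sets were 0, and 10 lower and 1 higher member probe sets had an unadjusted p under 0.05, against 6.17% and 7.56% of all probe sets. These counts do not tell whether they are the same probe sets across settings. Crossing the pairing again gave 0 probe sets past the threshold on the whole array, so partner and effector probe sets were 0. At an unadjusted p under 0.05 it gave 17 lower and 3 higher member probe sets, against 8.03% and 9.49% of all probe sets (limma). Under the block the change of ADAM10 by 202604_x_at stayed 1.08, with an adjusted p of 0.36 (limma).

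Of 343 values of named genes under other settings, 16 lay across 0 from the reported one. NRP2 turned to -0.0428 and PLXNB2 to -0.166 after quantile normalization, and to -0.0288 and -0.131 after cyclic loess, and EFNB1 to 5e-05 and 0.00973. When 1 array was left out, values ran from -0.15 to 0.16 for NRP2, -0.13 to 0.14 for PLXNB2, -0.18 to 0.12 for EFNB1, -0.0349 to 0.10 for SEMA4D, -0.0796 to 0.39 for SEMA3A, -0.20 to 0.00265 for EFNA1 and -0.28 to 0.0149 for EFNB2. For other named genes the sign held under the settings run. Each gene was followed by 1 probe set only, that of highest level. Other probe sets of some of these genes had the opposite sign, as given above. They were not followed, and neither was SEMA3F. The cause of the changes of sign between settings was not tested.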

Other observations

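The probe set that named SEMA3B together with a microRNA gene was not counted among the members. It read 7.90 on each miR-NT array and 7.57 and 7.50 on the miR-20a arrays, a log2 change of -0.36 ± 0.09 (SE, limma adjusted p = 0.15).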
